A study of Mus musculus with 2 samples.

Results

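The genes described are the copies of the Sm-class and minor spliceosomal small nuclear RNAs (snRNAs) in LPS-treated macrophages. They were chosen by symbol and by level. A row of the table counted as a member where its symbol was U1, U2, U4, U5, U7, U11, U12, U4atac or U6atac, or began with Rnu followed by one of the corresponding type numbers, and where its FPKM averaged over both libraries was at least 1. FPKM counts fragments relative to the length of a gene's exons and to the depth of the library. Of 37451 rows, 467 carried such a symbol and 264 passed the minimum. The members were 147 copies of U1, 40 of U2, 36 of U4, 10 of U5, 5 of U11, 5 of U12, 1 of U4atac, 15 of U6atac, 4 of U7 and the gene Rnu73b. Of the other 203 rows, 190 were at 0 in both libraries and 13 were above 0 but under the minimum.

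The RNA-Seq comprised 1 library from WT and 1 from ΔM bone marrow-derived macrophages (BMDMs), both of the C57BL/6 background and taken from littermates of 7 to 9 weeks. ΔM mice (TTP fl/fl LysMCre) carry a floxed gene for tristetraprolin (TTP, Zfp36), an RNA-binding protein that promotes decay of inflammatory mRNAs, and express Cre from the lysozyme M locus, which is active in myeloid cells and thus also in cultured macrophages. Cells of both genotypes were grown in medium with CSF-1 from L929 cells, kept in 100 µM 4-thiouridine for 16 h and then given 10 ng/ml LPS for 6 h. Total RNA was depleted of ribosomal RNA, fragmented and ligated to a 3′ adaptor, and cDNA of 200 to 300 nt was cut from a gel. With 1 library per genotype there was no replicate, so no p-value was calculated. The intervals given cover counting error only, and a difference between genotypes cannot be told apart from a difference between these libraries.

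snRNAs are the RNA cores of the small nuclear ribonucleoproteins (snRNPs) that assemble into the spliceosome. In the major spliceosome U1 pairs with the 5′ splice site, U2 with the branch point, and U4 delivers U6 together with U5 to the intron. U11, U12, U4atac and U6atac do the same work, with U5, at the rare minor-class introns. U1, U2, U4, U5, U11, U12 and U4atac are made by RNA polymerase II and carry a ring of Sm proteins on a uridine-rich Sm site, U7 carries a variant Sm ring and acts in 3′ end formation of histone mRNAs, and U6 and U6atac are made by RNA polymerase III and carry the related LSm ring. Most of these types occur in the genome with many copies, of which a large part are pseudogenes. Rnu73b met the rule by its symbol, although the annotation places it as a snoRNA gene of 71 nt inside an intron of Rps3a on the same strand, so it is kept apart from the snRNA types.

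The copies of highest mean FPKM show the elements by which the types were compared. The sequences are the sense strand of the gene in NCBIM37 (mm9), 5′ to 3′, and capitals mark the element of the first part of the RNA, where one was searched, and the Sm site. The U1 copy with the most fragments (ENSMUSG00000075736) lay at chr12:55797769-55797932 on the plus strand, outside other genes.
U1: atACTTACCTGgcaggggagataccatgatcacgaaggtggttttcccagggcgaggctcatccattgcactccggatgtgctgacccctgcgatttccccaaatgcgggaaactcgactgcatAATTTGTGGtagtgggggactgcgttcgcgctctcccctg
The first run in capitals, ACTTACCTG, is the stretch that pairs with the 5′ splice site, and AATTTGTGG is the U1 Sm site. The second U1 copy, ENSMUSG00000070194 at chr11:87240218-87240381 on the plus strand in an intron, differed from it by the substitution C60T, with positions counted from 1 at the 5′ end. The highest U2 copy (ENSMUSG00000065251) lay at chr11:101507054-101507244 on the minus strand, and capitals mark the branch point recognition stretch GTAGTA and the Sm site ATTTTTG.
U2: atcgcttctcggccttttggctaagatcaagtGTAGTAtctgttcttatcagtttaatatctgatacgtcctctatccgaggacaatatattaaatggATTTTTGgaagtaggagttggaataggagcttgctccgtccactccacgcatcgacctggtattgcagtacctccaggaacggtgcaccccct
The 2 highest U4 copies (ENSMUSG00000075998 and ENSMUSG00000075779) lay next to each other at chr5:115939468-115939608 and chr5:115940263-115940403, both on the plus strand, and differed by G88A and C99A.
U4 first: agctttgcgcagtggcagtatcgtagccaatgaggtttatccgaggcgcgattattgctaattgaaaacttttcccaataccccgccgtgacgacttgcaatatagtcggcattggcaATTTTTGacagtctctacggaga
U4 second: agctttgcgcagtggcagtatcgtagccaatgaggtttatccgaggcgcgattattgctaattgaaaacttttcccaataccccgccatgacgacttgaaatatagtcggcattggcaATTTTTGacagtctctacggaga

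For the minor-class types and U7, the copy of highest mean FPKM is shown, which for U4atac is the single row of that symbol. The U11 copy (ENSMUSG00000077323) lay at chr4:131825995-131826128 on the minus strand, the U12 copy (ENSMUSG00000065176) at chr15:82980074-82980224 on the plus strand, and the U4atac gene (ENSMUSG00000080542) at chr1:120355718-120355842 on the minus strand within an intron. The U6atac copy (ENSMUSG00000080538) lay at chr2:27395325-27395450 on the minus strand, and no Sm site was searched in it. The U7 copy (ENSMUSG00000089083) lay at chr6:124691243-124691304 on the minus strand and overlapped an exon of another gene on the same strand.
U11: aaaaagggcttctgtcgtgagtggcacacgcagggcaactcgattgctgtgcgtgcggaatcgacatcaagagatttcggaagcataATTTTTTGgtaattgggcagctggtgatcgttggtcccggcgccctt
U12: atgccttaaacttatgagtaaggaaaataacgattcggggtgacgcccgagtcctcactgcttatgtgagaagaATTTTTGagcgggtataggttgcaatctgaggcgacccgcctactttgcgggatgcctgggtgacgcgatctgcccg
U4atac: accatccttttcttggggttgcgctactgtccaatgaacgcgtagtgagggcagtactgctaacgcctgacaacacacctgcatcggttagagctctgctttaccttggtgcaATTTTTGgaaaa
U6atac: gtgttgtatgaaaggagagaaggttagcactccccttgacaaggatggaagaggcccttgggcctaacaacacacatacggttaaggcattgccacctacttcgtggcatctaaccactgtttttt
U7: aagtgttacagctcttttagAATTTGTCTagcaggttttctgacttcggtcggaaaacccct

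The labels and the cell type were checked first. Zfp36 was at 65.3 FPKM in WT and 16.7 in ΔM. The 8 macrophage markers were all detected, from 2.15 FPKM (Mertk) to 2481 FPKM (Lyz2) in WT and from 3.48 to 1356 in ΔM, while the markers of B cells, dendritic cells, fibroblasts, neutrophils and T cells summed to at most 1.04 FPKM per list in either library. Lyz2, from whose locus Cre is expressed, was at 2481 FPKM in WT and 1356 in ΔM, and Csf1r, Cd68, Emr1, Itgam, Cd14 and Fcgr1 differed by less than 0.2 on the log2 scale. The FPKM of genes shorter than the fragments are inflated, because Cufflinks divides by the few positions at which a fragment can lie within the gene. The low values were whole multiples of 1 fragment, within 0.1 of a fragment, for 96.9% of 1303 values in WT and 97.2% of 1287 in ΔM, with 20% given by chance, under fragments of 200 nt on average (SD 80 nt). This gave 37175000 fragments in WT and 32870000 in ΔM. FPKM were turned into estimated fragments on that basis.

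snRNA copies were higher in ΔM as a group, with about 2 times as many fragments. The members together held 145328 estimated fragments in WT and 254840 in ΔM, which is 3909 and 7753 fragments per 1000000, or 1.98-fold more in ΔM (95% exact interval of counting 1.97 to 1.996). Their share of the FPKM sum was 18.4% in WT and 27.5% in ΔM. In bulk RNA, a change in the number of cells of a type and a change in RNA per cell cannot be told apart. The median log2 ratio of ΔM to WT, taken after adding 1 FPKM to both values, was 1.04 over the 264 members. It was 0.03 over the 10765 genes that reached the same minimum and 0.00 over the 8078 protein-coding genes among them. Of the members, 142 (53.8%) were at least 2-fold higher in ΔM, where the background over all genes was 5.69%, and 19 (7.20%) were at least 2-fold lower, where the background was 3.61%. These counts include members at 0 in 1 library, which passed the minimum through the other, so they are given as a description. Among the 211 rows of these symbols above 0 in both libraries, 105 were at least 2-fold higher and 3 at least 2-fold lower. The share of all genes under that filter was not calculated. Among the 8078 protein-coding genes that reached the minimum, 1.19% were at least 2-fold higher and 1.32% at least 2-fold lower. The plot of WT against ΔM FPKM shows each copy.

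**Figure D1:**
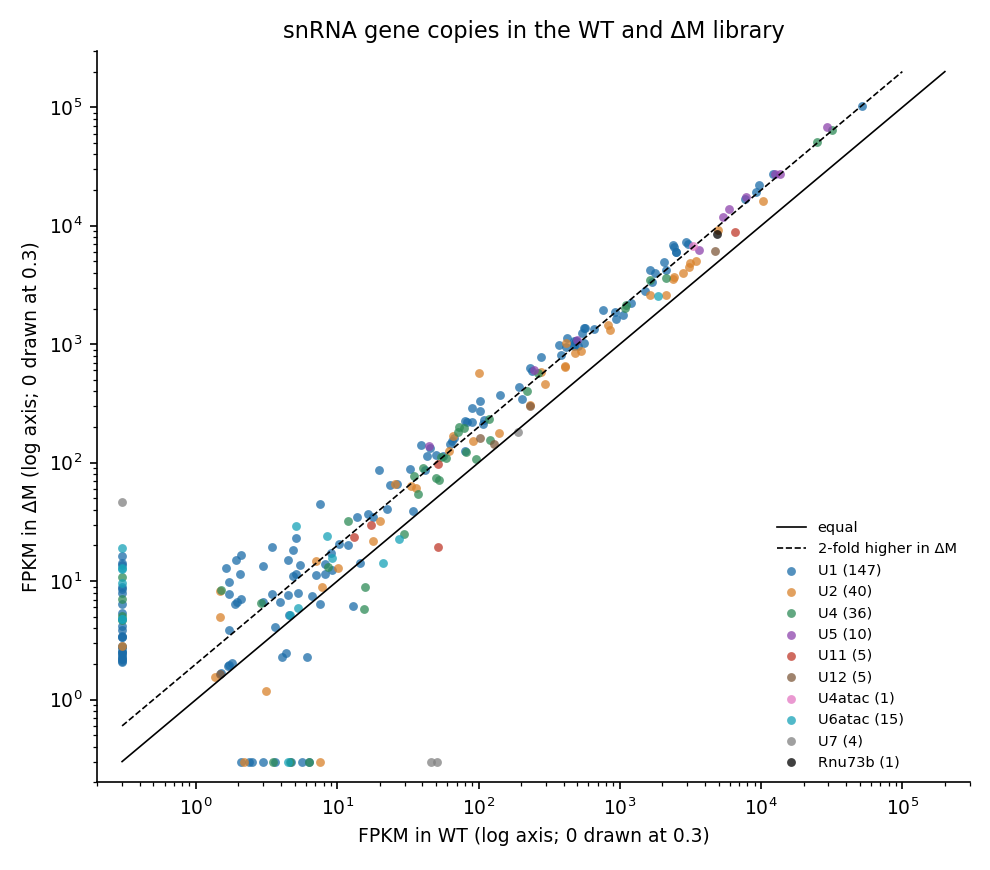
FPKM of the 264 members in WT (horizontal) and ΔM (vertical), both on log axes, with 1 point per gene copy coloured by snRNA type and values of 0 drawn at 0.3. From about 100 FPKM upwards most U1, U4 and U5 copies lie near the dashed line of a 2-fold difference. Most U2, U11 and U12 copies lie between the dashed line and the solid line of equality. With a mean of at least 100 FPKM, 4 of 24 U2 copies lie beyond the dashed line. At that mean log2 ratios ran from 0.18 to 1.43 over 15 U4 copies and from 0.64 to 1.69 over 55 U1 copies.

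The lower end of the list held little information. The members just inside the minimum were 3 U1 copies with means of 1.04, 1.045 and 1.06 FPKM, and those just outside were 3 U1 copies with means of 0.955, 0.955 and 0.94 FPKM. Each of these 6 values rested on 1 fragment in 1 library. A total of 53 members were at 0 in 1 library (37 in WT and 16 in ΔM) with at most 5 fragments in the other, and these had to differ, because the minimum admitted them through 1 library. Values of 114 members rested on at least 20 fragments in each library, and all 114 were higher in ΔM, by 0.15 to 1.82 on the log2 scale with a median of 1.04. Of these, 65 were at least 2-fold higher. Over all single-exon genes under 400 nt with at least 20 fragments in each library, members included, 537 of 633 were higher and 91 at least 2-fold higher. Among the other short RNA genes with that many fragments, 353 of 421 were higher and 26 at least 2-fold higher. The direction alone was thus shared by most of these genes, while a difference of at least 2-fold was more frequent among the members. The plot of the log2 ratio against the number of fragments shows the spread closing as the fragments increase.

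**Figure D2:**
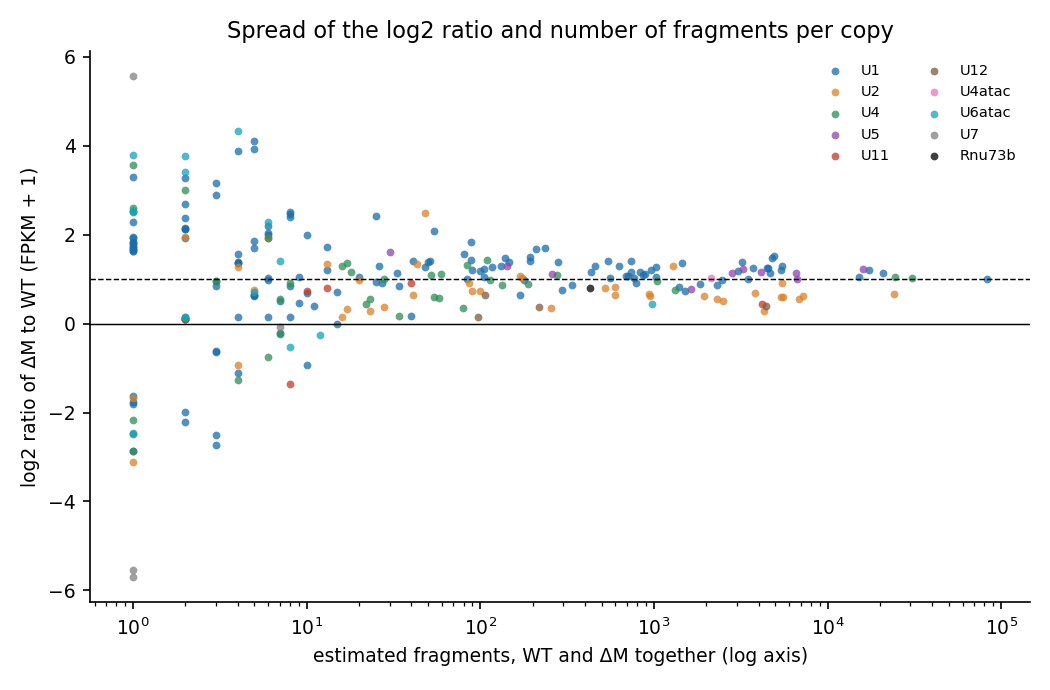
Log2 ratio of ΔM to WT (vertical) against the estimated fragments of both libraries together (horizontal, log axis) for each member, coloured by type. Ratios reach from -5.71 to 5.57 where copies rest on single fragments and lie above 0 for every copy with at least 20 fragments in each library.

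U1, which recognises the 5′ splice site, was the most abundant type and was about 2-fold higher in ΔM. Its top copy on chromosome 12 was at 51719.9 FPKM in WT and 103009 in ΔM, a 1.99-fold difference (1.96 to 2.02). It held 41.1% of U1 fragments in WT and 38.1% in ΔM. The second copy, on chromosome 11, was at 12225 FPKM in WT and 27078 in ΔM (2.21-fold, 2.15 to 2.28), and the third, at chr3:96163876-96164040, at 9667 and 22262 FPKM (2.30-fold, 2.23 to 2.38). The listed ratios of these copies were thus higher than that of the top copy by more than counting error. However, neither the second nor the third copy has a 50-nt window that occurs once in the genome. The intervals do not cover how fragments were placed among such copies. Summed over all copies, U1 was at 1964 fragments per 1000000 in WT and 4219 in ΔM, 2.15-fold (2.13 to 2.17). Of the 60 U1 copies with at least 20 fragments in each library, 48 were at least 2-fold higher, the median log2 ratio was 1.19 and the SD over copies 0.27. The interval of 37 of these 60 held the summed fold, so that part of the spread between copies exceeded counting error. The lowest ratio among them was 34.5 to 39.0 FPKM (20 fragments in each library), at chr11:26237540-26237703. Among all U1 members the lowest and the highest ratios came from copies with 1 fragment in WT and 0 in ΔM, and with 0 in WT and 5 in ΔM.

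Many of the U1 fragments were assigned to copies in clusters. Most copies of both clusters have no 50-nt window that occurs once in the genome, and how their fragments were placed was not tested. On chromosome 12, 7 copies between 55797769 and 55839609 held 54.1% of U1 fragments in WT and 52.02% in ΔM, and their log2 ratios ran from 0.74 to 1.52 with a median of 1.28. A second cluster of 8 copies, on chromosome 3 between 96132348 and 96292816, held 11.03% and 11.7%, and its log2 ratios ran from 1.001 to 1.68 with a median of 1.25. The ranges of both clusters overlapped.

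U2, which pairs with the branch point, differed less than U1. Its top copy was at 10313 FPKM in WT and 16304 in ΔM, 1.58-fold (1.54 to 1.62). The next copy, at chr1:157801704-157801852, is 149 nt long and 59.2% identical to the top copy, and was at 4918 and 9266 FPKM (1.88-fold, 1.78 to 1.99). Over all copies U2 went from 852 to 1329 fragments per 1000000, 1.56-fold (1.54 to 1.58). Of 23 U2 copies with at least 20 fragments in each library, 3 were at least 2-fold higher, with a median log2 ratio of 0.66 (SD 0.22 over copies) and a range of 0.29 to 1.29. The interval of 18 of the 23 held the summed fold. The lower end was a copy on chromosome 8 at 2128 and 2595 FPKM (1.22-fold, 1.15 to 1.30), and the upper end 1 of 4 copies of identical sequence on chromosome 11, at 419 and 1023 FPKM (2.44-fold, 2.17 to 2.75). The top copy has the same sequence as that copy and a ratio of 1.58, so copies that cannot be told apart within the gene had unequal ratios. The highest ratio of any U2 member was 101 to 573 FPKM, on 8 and 40 fragments, and the lowest 7.60 to 0, on 1 fragment. The U2 cluster on chromosome 11, with 5 copies between 101466164 and 101519742, held 48.8% of U2 fragments in WT and 49.96% in ΔM.

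U4, the partner that holds U6 inactive until the spliceosome is activated, was also about 2-fold higher. The 2 neighbouring copies on chromosome 5 were at 31672 and 24791 FPKM in WT and at 64552 and 51311 in ΔM, which is 2.04-fold (1.99 to 2.09) and 2.07-fold (2.02 to 2.13). Together they held 93.2% of U4 fragments in WT and 93.8% in ΔM. The sum of U4 went from 565 to 1150 fragments per 1000000, 2.04-fold (2.003 to 2.07), and 13 of 14 copies with at least 20 fragments in each library had an interval that held this fold. Their log2 ratios ran from 0.36 (121 to 155 FPKM) to 1.43 (73.1 to 199 FPKM). The extremes over all U4 members again rested on 1 fragment.

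U5, which holds the exon ends in place and serves both spliceosomes, was also about 2-fold higher. All 10 rows were members. The copies on chromosome 4 were at 29234, 5922 and 5372 FPKM in WT and at 68802, 13849 and 11776 in ΔM, which is 2.35-fold (2.28 to 2.43), 2.34-fold (2.17 to 2.52) and 2.19-fold (2.03 to 2.37). The copy on chromosome 1 that overlaps an exon of B930036N10Rik on the same strand was at 13539 and 27075 FPKM, 1.9998-fold (1.90 to 2.10). The lowest ratio was that of the copy in an intron of Hhat on the opposite strand, at 3628 and 6202 FPKM (1.71-fold, 1.55 to 1.89), and lay below the interval of the top copy. The highest ratio, 44.9 to 140 FPKM, rested on 8 and 22 fragments. The sum went from 378 in WT to 837 fragments per 1000000 in ΔM, 2.21-fold (2.17 to 2.26). The order of U5 and U1 depended on 1 copy of each, since without the highest copy the ratio of FPKM sums was 2.25 for U1 and 2.13 for U5. In each library the FPKM sums of the types were in the order U1, U5, U4 and U2, at 132429, 78801, 63970 and 41625 FPKM in WT and 284872, 174408, 130001 and 66141 in ΔM. These sums are divided by length, which inflates the values of short genes. In fragments per 1000000 the order was U1, U2, U4 and U5. The values were 1964, 852, 565 and 378 in WT and 4219, 1329, 1150 and 837 in ΔM.

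U11, U12 and U6atac differed by less than U1, U4 or U5, while U4atac differed by about as much as U4. The U11 copy was at 6569 FPKM in WT and 8923 in ΔM (1.36-fold, 1.28 to 1.44), and the U12 copy at 4687 and 6166 FPKM (1.32-fold, 1.24 to 1.40). U4atac, the minor-class counterpart of U4, went from 3304 to 6689 FPKM (2.02-fold, 1.85 to 2.22). U6atac went from 1877 to 2558 FPKM (1.36-fold, 1.20 to 1.55). The intervals of U11, U12 and U6atac overlapped each other and lay below that of U4atac. Each of these copies held between 91.3% and 100% of the fragments of its type in both libraries. The other U11 members had 2 to 25 fragments per library, with log2 ratios on both sides of 0. The 4 U12 copies with at least 20 fragments ran from 129 to 142 FPKM (log2 ratio 0.15) to 103 to 160 FPKM (0.63). The median log2 ratio of 1.40 over the 15 U6atac members was set by copies with at most 7 fragments per library, and the well-measured copy was at 0.45.

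**Figure D3:**
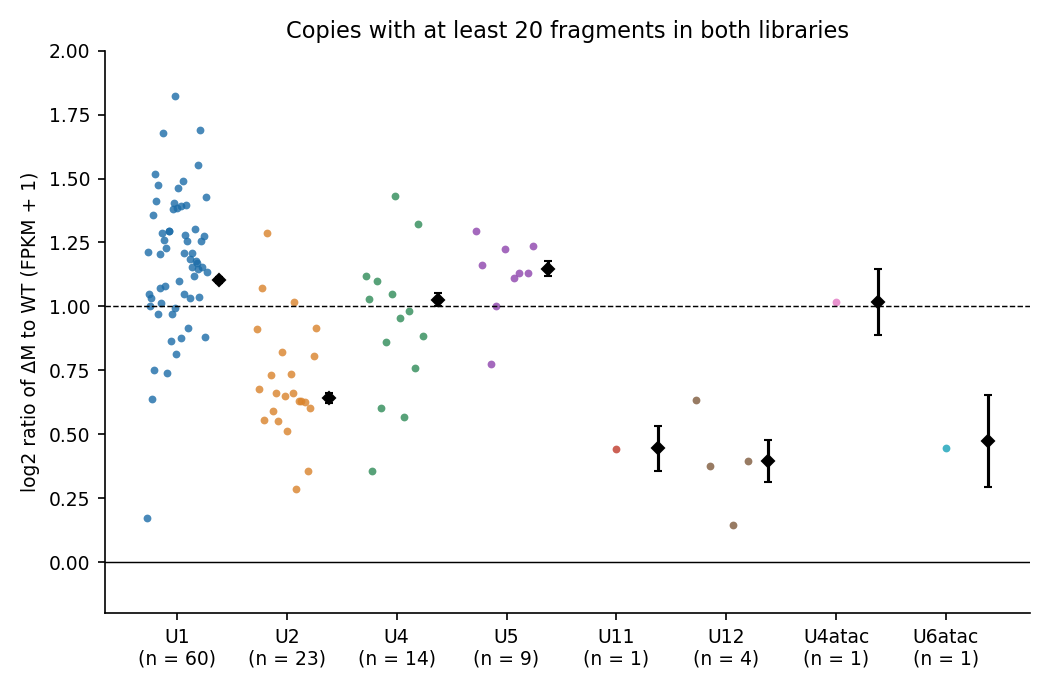
Log2 ratio of ΔM to WT for the copies with at least 20 fragments in each library, 1 point per copy, by snRNA type. Black diamonds give the ratio of fragments summed over all members of the type with its 95% counting interval, at 2.15-fold for U1, 1.56 for U2, 2.04 for U4, 2.21 for U5, 1.36 for U11, 1.32 for U12, 2.03 for U4atac and 1.39 for U6atac. The dashed line marks a 2-fold difference.

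U7 was at the limit of detection. Only 4 of 116 U7 rows were members, with 6 estimated fragments in WT and 4 in ΔM (0.75-fold, 0.16 to 3.18). The copy with the Sm site shown above was at 191 FPKM in WT and 180 in ΔM, on 4 and 3 fragments, so a difference like that of U1 was not detectable at this depth. U7 is 62 nt long, which leaves few positions for a fragment and makes FPKM large for few fragments. Rnu73b, the intronic snoRNA gene, was at 4901 FPKM in WT and 8527 in ΔM on 169 and 260 fragments (1.74-fold, 1.43 to 2.12). Without it the median log2 ratio of the members was 1.04 and the summed fold 1.98.

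**Figure D4:**
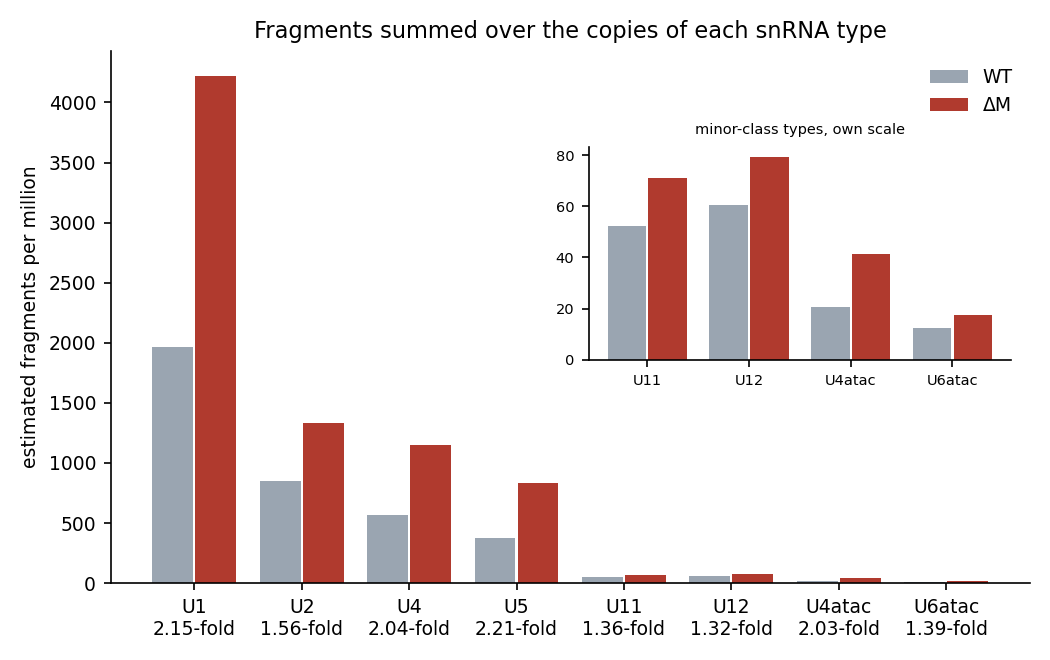
Estimated fragments per 1000000 in WT (grey) and ΔM (red), summed over the members of each snRNA type, with the ratio of ΔM to WT under each name and the 4 minor-class types repeated in the inset on a scale of their own. U1 stands at 1964 in WT and 4219 in ΔM, and U6atac at 12.5 and 17.3. Counting intervals of the ratios are not drawn. For U6atac the interval of the summed ratio was 1.23 to 1.57.

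Copies with the functional elements held most fragments, but the ratio did not follow the elements. Motifs were searched on the sense strand of each gene and compared with 2978 other single-exon genes of 100 to 200 nt. ACTTACCTG was in 52 of 147 U1 members (35.4%) and in 0.0336% of the other genes, and AATTTGTGG in 59 (40.1%) and 0.101%. GTAGTA was in 28 of 40 U2 members (70.0%, against 1.58%). The Sm site was searched as ATTTTTG or ATTTTTTG in the other Sm-class types. ATTTTTTG was in all 10 U5 members and 4 of 5 U11 members, ATTTTTG in 15 of 40 U2, 6 of 36 U4 and 4 of 5 U12 members, and these were in 0.168% and 0.604% of the other genes. The 34 U1 copies with both U1 elements held 89.3% of U1 fragments in WT and 89.1% in ΔM. Their median log2 ratio was 1.21, the same as in the 113 copies without both. In U2, 12 copies with both elements held 82.3% and 81.1% of fragments, with a median log2 ratio of 0.63 against 0.70 in the other 28. In U4, the 6 copies with the Sm site held 95.2% and 95.8%, and the median log2 ratios were 1.04 and 0.87.

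Identity to the top copy and level went together more in U1 and U5 than in U2 and U4. Spearman's rho between mean FPKM and percent identity was 0.64 over 147 U1 copies and 0.79 over 10 U5 copies. It was 0.29 over 40 U2, 0.18 over 36 U4 and 0.47 over 15 U6atac copies. This is a description over copies that share libraries and sequence. The top copy was chosen by its level and is identical to itself, so rho is in part set in advance, most so with few copies. The 22 U1 copies of at least 95% identity had a median log2 ratio of 1.23 and the other 125 a median of 1.21. Of all members, 164 lay outside other genes, 94 in introns (64 of them on the strand of the host gene) and 6 overlapped exons. The 64 in introns of the same strand, where reads of the host pre-mRNA would also count, held 11.8% of the members' fragments in WT and 12.8% in ΔM and had a median log2 ratio of 1.19. It was 1.05 in the intergenic copies. The 2 groups differ in type, since 47 of the 64 were U1 copies. Within U1 the medians were 1.21 in introns of the same strand and 1.20 in the intergenic copies.

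Sequence shared between copies limits how far the value of a single copy can be read. Of 264 members, 203 consisted only of 50-nt windows that occur once in the genome, and these held 8.33% of fragments in WT and 7.95% in ΔM. Their median log2 ratio was 1.03. In U1, 112 such copies had a median of 1.27 and the other 35 a median of 1.18, and in U2 25 such copies had 0.73 and the other 15 had 0.63. These medians include copies at 0 in 1 library. Among copies with at least 20 fragments in each library, 28 U1 copies of unique sequence had 1.20 and the other 32 had 1.19. In U2, 9 such copies of unique sequence had 0.73 and the other 14 had 0.63. The ratio of U2 was thus lower than that of U1 also among well-measured copies of unique sequence. In 19 members no 50-nt window was unique, yet their mean FPKM ran from 189 to 19652. The authors kept reads with a unique position, and how these fragments were placed was not tested. Higher copies had fewer unique windows, with Spearman's rho of -0.60 in U1, -0.75 in U2 and -0.74 in U5, again as a description over copies.

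U6, snoRNA and 7SK genes were also higher in ΔM, but by less than U1, U4 and U5, while microRNA (miRNA) genes were lower in sum. The 195 miRNA genes had summed fragments at 0.69-fold (0.67 to 0.71) and a median log2 ratio of 0.23. Of 18 miRNA genes with at least 20 fragments in each library, 7 were higher, and the median was -0.24. The 526 U6 copies with a mean of at least 1 FPKM, whose RNA works in the same tri-snRNP as U4 and U5, had a median log2 ratio of 0.24, and their summed fragments were 1.24-fold higher (1.20 to 1.28). Box C/D snoRNA genes, which guide methylation of ribosomal RNA, had a median of 0.36 over 138 genes and a sum 1.41-fold higher (1.39 to 1.43). Box H/ACA snoRNA genes, which guide pseudouridylation, had a median of 0.38 over 260 genes and a sum 1.34-fold higher (1.32 to 1.36). The 47 copies of 7SK, an RNA polymerase III product that restrains the elongation factor P-TEFb, had a median of 0.34 and a sum 1.21-fold higher (1.20 to 1.23). Among genes with at least 20 fragments in each library, 3 of 117 U6 copies, 15 of 112 C/D genes, 5 of 97 H/ACA genes and 0 of 21 7SK copies were at least 2-fold higher, against 48 of 60 U1, 7 of 9 U5, 6 of 14 U4 and 3 of 23 U2 copies. The share of U2 (13.0%) was close to that of the C/D genes (13.4%). U11 and U12, at 1.36-fold and 1.32-fold, lay within the range of the U6, snoRNA and 7SK genes.

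**Figure D5:**
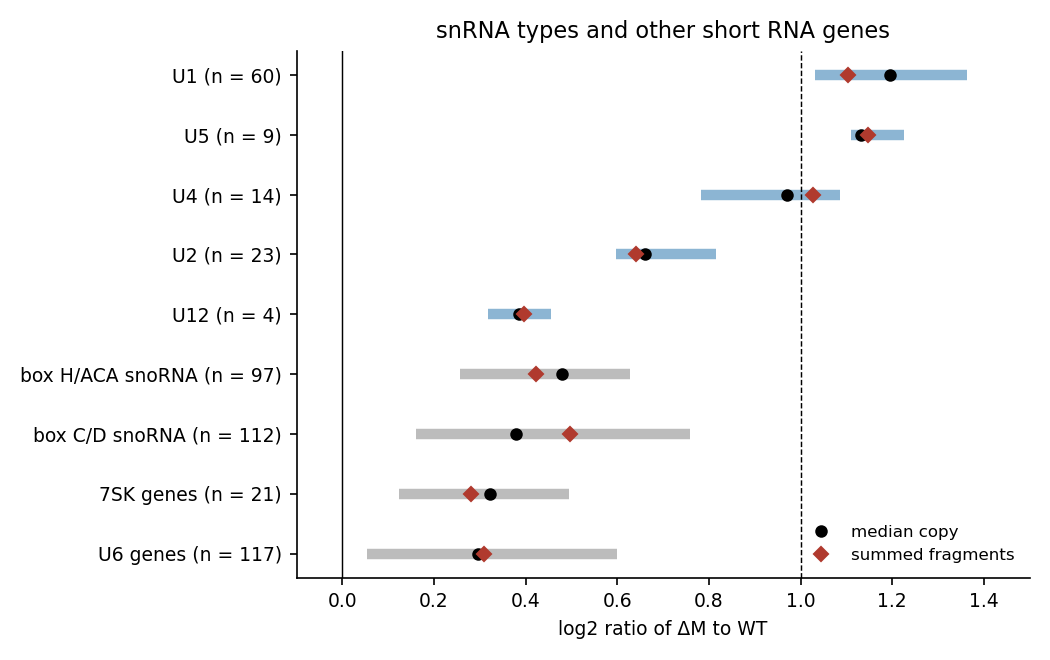
Log2 ratio of ΔM to WT for genes with at least 20 fragments in each library, by class. Bars span the 25th to 75th percentile over genes, circles give the median gene and diamonds the ratio of summed fragments. The bars of U1, U5 and U4 lie above those of the snoRNA, 7SK and U6 genes, whose medians lie between 0.30 and 0.48.

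The comparison was repeated within classes of length, since FPKM of short genes depend on length. Among genes of 150 to 169 nt, the summed fold was 2.12 over 115 members and 1.44 over 8 snoRNA genes. Among genes of 130 to 149 nt it was 1.95 over 44 members and 1.47 over 175 snoRNA genes, and among genes of 110 to 129 nt 2.16 over 45 members and 1.54 over 92 snoRNA genes. Among genes of 170 to 199 nt it was 1.54 over 38 members and 1.22 over 10 snoRNA genes. The members were thus above the snoRNA genes in each class of length by more than counting error.

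mRNAs of the proteins that snRNAs assemble with had a median near 0 as a whole, while the LSm list had a median of -0.45. Of 129 listed genes, 124 were found and 104 had a mean of at least 1 FPKM. Their median log2 ratio was -0.03, 50 were higher and 54 lower in ΔM, and after adding 1 FPKM 0 were at least 2-fold higher and 3 at least 2-fold lower, beside the 1.19% and 1.32% of all protein-coding genes. On the FPKM themselves, without the added 1, Gemin5 was 2.19-fold higher, and Snrpa, the U1-A protein, was also lower by over 2-fold, at 2.87 FPKM in WT and 1.37 in ΔM. Both were noted on this scale after their values were seen. In the U1 snRNP list the median of 10 genes was -0.09. Snrpc, the U1-C protein, had the highest ratio, at 0.87 FPKM in WT and 1.46 in ΔM, Tial1 lay in the middle at 7.79 and 7.43, and Luc7l, a U1-associated splicing factor, was lowest at 7.68 and 2.71. In the U2 list (14 genes, median 0.04) the values were 2.07 and 2.57 FPKM for Snrpb2, 15.2 and 16.0 for the SF3B subunit Sf3b3, and 12.9 and 10.4 for Snrpa1.

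The Sm core, U4/U6 and U5 lists had medians near 0 too. The 7 Sm core genes had a median of 0.09, from Snrpd3 at 7.68 and 6.80 FPKM to Snrpg at 2.07 and 2.85, with Snrpf in the middle at 1.75 and 1.92. The 5 genes of the U4/U6 list had a median of -0.17, with Prpf4 at 4.01 and 4.87 FPKM, Sart3, a recycling factor of U4/U6, at 5.75 and 4.99, and Nhp2l1 at 1.51 and 1.01. The 11 genes of U5 and the tri-snRNP had a median of -0.08, with Prpf6 at 11.7 and 14.1 FPKM, the helicase Snrnp200 at 22.4 and 21.1, and Cd2bp2 at 10.5 and 7.65. The LSm list differed, since its 5 genes had a median of -0.45 and 4 of them were lower in ΔM. Lsm4 was at 96.2 and 70.3 FPKM, Naa38 at 7.83 and 9.38, and Lsm2 (3.44 and 1.02) and Lsm5 (2.65 and 0.38) were the other genes at least 2-fold lower. Few fragments lay behind these 2 genes, with an estimated 72 in WT and 19 in ΔM for Lsm2 and 29 and 4 for Lsm5.

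Genes of the minor spliceosome, of snRNA production and of assembly showed no common direction. The 8 minor-spliceosome genes had a median of -0.08, with Zrsr2 at 3.67 and 4.75 FPKM, Txnl4b at 1.15 and 1.04, and Rnpc3, the protein that links U11 and U12, at 7.30 and 4.33. The 8 genes of the U7 snRNP and histone 3′ end formation had a median of -0.07, with Cpsf3 at 4.39 and 5.04 FPKM, Cstf2t at 2.46 and 2.33, and Casp8ap2 at 3.68 and 2.14. Of 20 genes of snRNA transcription and of the Integrator complex, which cleaves snRNA precursors, 11 were higher and 9 lower, with a median of 0.01. The Integrator subunit Ints2 was at 4.33 and 7.18 FPKM, Ints12 at 15.7 and 16.0, and Snapc3, a subunit of the factor that binds snRNA promoters, at 2.30 and 1.75. Of 16 genes of snRNP assembly and transport, 10 were higher and 6 lower, with a median of 0.05. Gemin5, which recognises snRNAs for Sm ring assembly, was at 0.84 and 1.84 FPKM, the cap-binding protein Ncbp1 at 5.15 and 5.46, and the methyltransferase Prmt5, which modifies Sm proteins, at 8.33 and 4.49.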

How the data were processed

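RNA-Seq libraries of LPS-treated WT and ΔM BMDMs were compared, 1 per genotype. The authors trimmed reads with Cutadapt, aligned them with Segemehl to mm9, retained reads with a unique position and computed the deposited FPKM with Cufflinks on Ensembl exons, 1 value per gene with 2 decimals. The ΔM column held 1 row without a number. Gene positions, types and sequences were taken from GENCODE M1 and the NCBIM37 genome, which held 37039 of 37451 identifiers. Log2 ratios were computed after adding 1 FPKM, which understates the change of low genes. Fragments were estimated as FPKM times depth times effective length, with Cufflinks' default fragment lengths assumed. The 95% intervals of ratios are exact binomial intervals on the sum of both counts, and cover counting error only. The depth search was tested on simulated data, where 3 of 3 libraries were recovered within 2% and 94.7% of the intervals of 57 changed genes held the true fold. The simulations used the same fragment lengths as the search, and that of the folds took the depths as known. They therefore do not test whether these fragment lengths hold for the libraries. Calculations used scipy 1.17.1, pandas 2.3.3 and numpy 2.4.6 in Python 3.11.15. The members, the protein lists and the comparisons were chosen with earlier results of these data known. The genes named are those with a symbol that begins with Rnu, per type the copy of highest mean FPKM and the copies of highest and lowest log2 ratio, the members next to the minimum, and per protein list the highest, middle and lowest gene and those changed at least 2-fold. Other copies, such as those with at least 20 fragments, were named after their values were seen. Alternatives changed the pseudocount, the minimum, the centring, the members by unique sequence or length, the denominator and the highest copy. The sequence of U5 is not reported here.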

Additional observations from a re-analysis of the deposited data

How the results depend on the processing

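No paired analysis was possible because there was 1 library per genotype. Leaving out a library would remove a genotype, so it was not done. Of 152 values recomputed under alternatives, 128 stayed within the counting interval or within the interval of the median over copies (counts within 1.5 times), 23 moved beyond it and 1 reversed. With a pseudocount of 10 FPKM the median log2 ratio fell to 0.73 over members and 0.86 over U1, and the members at least 2-fold higher and lower to 86 and 3. With a minimum mean of 10 FPKM these counts were 89 and 4, and 3 were lower among rows above 0 in both libraries. Centring on the other short RNA genes subtracted 0.34 and gave 0.70 over members, 0.87 for U1, 0.32 for U2, 0.81 for U5, 0.039 for U12, 0.68 for U4atac, 0.025 for C/D and 0.042 for H/ACA snoRNA genes and -0.093 for U6 copies, the reversed value, with 81 members at least 2-fold higher. As a share of the FPKM of genes under 300 nt the members held 21.2% in WT and 30.5% in ΔM. Without the highest copy the ratio of FPKM sums was 2.25 for U1, 2.13 for U5, 1.27 for U11 and 2.11 for U6atac. In windows of 30 nt the median member had 98.8% unique windows. The order of U1 and U5 thus turned without the highest copies, and the cause of the shifts was not tested. U1, U4 and U5 were above U2 in the median log2 ratio under the pseudocounts and centrings tried. Depth limits the 150 members with under 20 fragments in a library, and the depth itself rests on the assumed fragment lengths.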
